A study of Mus musculus with 12 samples.

Results

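The genes described here encode 9 enzymes and cofactors that write, copy or remove DNA methylation and the Polycomb mark: Dnmt1, Dnmt3a, Dnmt3b, Uhrf1, Tet1, Tet2, Tet3, Ezh1 and Ezh2. A transcript cluster of the array stood for a member when its annotation gave that symbol and no other. Each of the 9 genes had 1 such cluster, so all 9 were measured, out of 22180 genes with a cluster of their own. The members were defined by gene name, a rule that uses no measured value.

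The arrays profiled mouse T cells in an alloreactive culture, on 12 Affymetrix arrays in 4 groups of 3 labelled A to C. In every group resting T cells of C57BL6 mice with a Foxp3-GFP reporter, which marks cells expressing the regulatory T cell factor Foxp3, were stimulated by CD11c dendritic cells of BALB/c mice, with 200000 T cells and 20000 dendritic cells in a well. All wells received IL-2 at 5 ng/mL. The CD8 control group held CD8 T cells kept for 4 days in IL-2 alone and sorted as GFP-negative. The CD8 Foxp3-positive group held CD8 T cells kept for 4 days with retinoic acid (40 nM) and TGFβ (5 ng/mL) as well, and sorted as GFP-positive. The CD4 control and CD4 Foxp3-positive groups were made in the same way from CD4 T cells but kept for 5 days. Cytokine treatment and the Foxp3 sort therefore changed together and cannot be told apart, and CD8 and CD4 groups also differed in days of culture. Wells were pooled before sorting, and the labels give neither the number nor the sex of the mice behind an array.

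DNA methyltransferases add methyl groups to cytosines in CpG pairs. Dnmt3a and Dnmt3b set new marks, whereas Dnmt1 copies them to the daughter strand after replication, guided by Uhrf1, which binds hemimethylated DNA. The Tet dioxygenases oxidise methylcytosine, which opens the way to its loss. Ezh1 and Ezh2 are the alternative catalytic subunits of Polycomb repressive complex 2 (PRC2), which methylates lysine 27 of histone H3. In regulatory T cells a demethylated enhancer in the first intron of Foxp3, called CNS2, keeps the gene on through division, and cells induced by TGFβ in culture are known to keep much of that enhancer methylated. Methylation itself was not measured on these arrays.

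Foxp3 checked the labels. Its level was between 12.39 and 12.53 on the 6 Foxp3-positive arrays and between 5.23 and 6.33 on the 6 control arrays, where levels are log2 units of hybridisation signal. Cd4 was above 11.8 on CD4 arrays only, and Cd8b1 lay between 11.84 and 12.01 on CD8 arrays. Cd8b1 averaged 7.72 ± 0.26 (SD, n = 3) in CD4 control cells and 6.17 ± 0.24 (n = 3) in CD4 Foxp3-positive cells. Of 13 dendritic cell markers 7 exceeded the median gene level of 5.60 in some group, and the mean of this list on single arrays ran from 5.89 to 6.04 for CD8 control, 5.73 to 5.94 for CD8 Foxp3-positive, 6.07 to 6.10 for CD4 control and 5.70 to 6.02 for CD4 Foxp3-positive cells. With Foxp3, Itgax fell by 1.76 in CD8 cells (limma adjusted p = 1.02e-06), and Batf3 fell by 0.96 in CD8 (0.0160) and 1.56 in CD4 cells (5.23e-04). In CD4 cells H2-Ab1 fell by 1.05 (0.0368) and Ccl17 rose by 0.78 (0.0362). The mean of 9 measured B cell markers was higher with Foxp3, at 5.99 to 6.03 against 5.66 to 5.84 in CD8 cells and 5.84 to 5.90 against 5.64 to 5.69 in CD4 cells. Of these markers 3 exceeded the median gene level in some group, and Ighm, the heavy chain of IgM, led the list at 11.89 to 12.15 in CD8 controls and 13.10 to 13.23 in CD8 Foxp3-positive cells. Ms4a1, Cd79a and Pax5, defining genes of B cells, stayed at or below 5.71 on every array. Cd79b was higher, at 7.14 to 7.62 in CD8 controls, and rose by 1.10 with Foxp3 (limma adjusted p = 1.92e-04). In CD4 cells it rose by 0.77 (0.00241), from a control range of 5.85 to 6.22. Cd79a rose by 0.36 in CD8 cells (0.0492), whereas Cd22 and Ebf1 fell in CD4 cells, by 0.60 (0.00810) and 0.64 (0.0174). The mean of 11 macrophage and monocyte markers, of which 3 exceeded the median gene level in some group, was 5.20 to 5.49 in CD8 Foxp3-positive and 5.08 to 5.17 in CD8 control cells, and overlapped in CD4 cells. Its genes moved in opposite ways. Lyz2 rose by 1.82 in CD8 (limma adjusted p = 5.36e-04) and 1.06 in CD4 cells (0.0184), and C1qb rose by 0.72 in CD8 cells (0.0143). Cd68, the gene of highest level, fell by 0.63 in CD8 (0.00672) and 1.19 in CD4 cells (4.74e-05). The part of these other cells in the results below was not tested. Sex-linked transcripts differed between arrays of a group. Xist, the RNA that silences 1 X chromosome in female cells, was at 5.20 and 4.74 on both CD8 arrays labelled B and between 10.70 and 11.39 on the other 10.

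Promoters of the members are shown first because the 3 members that fell in CD8 cells carry letters of the kind bound by E2F factors, the regulators of S-phase genes. RefSeq start sites gave 14 windows for the 9 genes, each of 300 bases from 250 before to 50 after the start (build GRCm38.p6). The letters TTTCCCGC, TTTGGCGC, TTTCGCGC and TTTGCCGC were searched on both strands, a choice made with the expression results known. They occurred in 1 of the 3 Dnmt1 windows, 1 of the 2 Uhrf1 windows and the only Ezh2 window, and in no window of the other 6 genes. The 30 bases around each match follow, 5′ to 3′ on the gene's strand, with the matched letters in capitals.
Dnmt1 upstream site: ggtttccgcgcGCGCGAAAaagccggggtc
Dnmt1 downstream site: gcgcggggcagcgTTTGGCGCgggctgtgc
Uhrf1 upstream site: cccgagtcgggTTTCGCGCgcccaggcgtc
Ezh2 site at the start: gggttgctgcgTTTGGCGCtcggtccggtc
Counting the first transcribed base as 1, the Dnmt1 matches span bases -219 to -212 (chr9:20952824-20952853, minus strand, letters on the opposite strand) and 34 to 41 (chr9:20952574-20952603). The Uhrf1 match spans bases -185 to -178 (chr17:56304117-56304146, plus strand), and the Ezh2 match spans bases 4 to 11 (chr6:47595009-47595038, minus strand). The 4 matches do not overlap one another.

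Such letters were uncommon over the genome. Of 32851 windows 2.26% held them, and of 27025 genes 2.60% had at least 1 window with them. Among DNA replication and G1/S genes 12 of the 31 with a window did, or 38.7%. These were Mcm3, Mcm5, Mcm6, Mcm7, Cdc6, Cdt1, Gins3, Orc1, Pola1, Rfc3, E2f2 and Lig1. Of them Lig1 rose with Foxp3 in both cell types. Among other PRC2 subunits 2 of 9 had a window with the letters, Suz12 and Phf19, and among methyl-CpG readers Hells had such a window. In the remaining lists Suv39h1, Nthl1, Cdk1 and Cdkn2a had a window with the letters. The letters CCAAT, found in 37.4% of all windows, stood in windows of Dnmt1, Uhrf1, Tet3 and Ezh2, and TTTGAA, found in 17.9%, in windows of Dnmt1 and Dnmt3b. Member windows held from 2 to 57 CG pairs, against a median of 7 over all windows, and the Tet2 window, with 57, held more than 99.8% of windows. The matching windows of Dnmt1, Uhrf1 and Ezh2 held 33, 33 and 31. Each of TTTCCCGC, TTTGGCGC, TTTCGCGC and TTTGCCGC contains CG, and the shares of windows and genes with them were not matched for CG pairs. A match describes the sequence and does not show that a factor binds there.

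In CD8 cells the maintenance pair and the Polycomb enzyme of dividing cells were lower with Foxp3, whereas Tet3 and Dnmt3b were higher. Of the 9 members 5 passed the test in CD8 cells, 2 higher and 3 lower, where 20.0% of all 22180 genes did, 9.39% higher and 10.6% lower (limma, Benjamini-Hochberg adjusted p under 0.05 over all genes). In CD4 cells 3 of 9 passed, Dnmt3b higher and Tet2 and Ezh2 lower, where 22.5% of all genes did. Control and Foxp3-positive arrays were fully separated for 5 members in CD8 cells and 6 in CD4 cells, against 33.5% and 37.8% of all genes. Ezh2 lower and Dnmt3b higher were the only changes called in both cell types. The CD8 and CD4 differences themselves differed for 3 of 9 members, Tet3 in the higher and Dnmt1 and Uhrf1 in the lower direction, where 13.5% of all genes did (6.01% higher, 7.48% lower). The median difference over the 9 members was -0.08 in CD8 and -0.17 in CD4 cells, beside -0.02 and 0.00 over all genes.

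**Figure D1:**
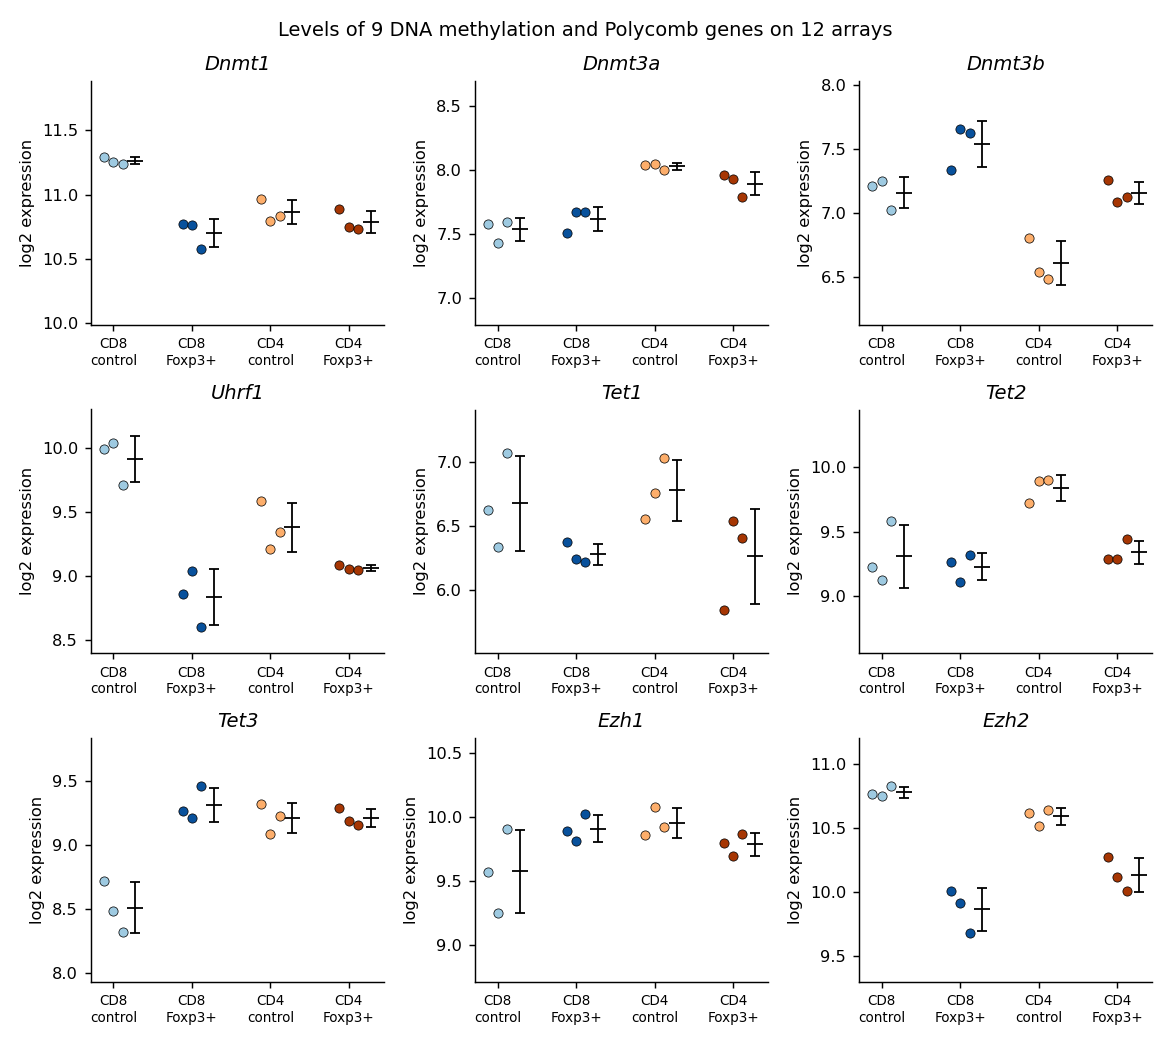
Level of each member (log2 units, vertical axes of equal span) on the 12 arrays, with points for single arrays ordered A to C in each of the 4 groups and bars for the mean ± SD (n = 3). Dnmt1, Uhrf1 and Ezh2 stand highest in CD8 control cells and lowest in CD8 Foxp3-positive cells, while Tet3 is low in CD8 control cells alone.

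Dnmt1, the enzyme that copies methylation at replication, measured 11.29, 11.26 and 11.24 on the CD8 control arrays A to C and 10.77, 10.77 and 10.58 on the CD8 Foxp3-positive arrays. All 3 control arrays were above all 3 Foxp3-positive arrays. Dnmt1 fell by 0.56 ± 0.09 (SE) log2 units in CD8 Foxp3-positive cells, 1.48-fold (95% interval -0.75 to -0.37, limma adjusted p = 5.24e-04). In CD4 cells it measured 10.97, 10.79 and 10.83 in controls and 10.89, 10.75 and 10.73 with Foxp3, and these arrays overlapped. The CD4 difference was -0.07 ± 0.09 (adjusted p = 0.620, 95% interval -0.27 to 0.12). The CD8 difference minus the CD4 difference was -0.49 ± 0.13 (limma interaction, adjusted p = 0.0223). That call was lost without CD8 control A, CD8 Foxp3-positive C, CD4 control B, CD4 control C or CD4 Foxp3-positive A, with adjusted p up to 0.0604, and without both CD8 arrays B (0.0578). CD8 control cells had the highest level, and the other 3 groups did not differ beyond their spread from their neighbours in the order.

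Uhrf1, the partner that brings Dnmt1 to replicated DNA, had the largest drop among the 9 members in CD8 cells. It measured 9.99, 10.04 and 9.71 in CD8 controls and 8.86, 9.04 and 8.60 with Foxp3. These arrays did not overlap, and Uhrf1 fell by 1.08 ± 0.13 log2 units or 2.11-fold (limma adjusted p = 6.27e-05). CD4 controls measured 9.58, 9.21 and 9.35, and CD4 Foxp3-positive cells measured 9.09, 9.05 and 9.05. The CD4 arrays did not overlap either, but the difference of -0.32 ± 0.13 missed the threshold (limma adjusted p = 0.110, 95% interval -0.60 to -0.03). The CD8 minus CD4 difference of these effects was -0.76 ± 0.19 (limma interaction, adjusted p = 0.0164). Levels ran from CD8 control through CD4 control and CD4 Foxp3-positive to CD8 Foxp3-positive cells, the last pair being 0.23 apart with an interval of -0.06 to 0.51.

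Dnmt3b, an enzyme that sets new methylation, was higher with Foxp3 in both cell types. CD8 controls measured 7.21, 7.25 and 7.02 and CD8 Foxp3-positive cells 7.34, 7.66 and 7.63. CD4 controls measured 6.80, 6.54 and 6.49 and CD4 Foxp3-positive cells 7.26, 7.09 and 7.13. Neither pair of groups overlapped. The rise was 0.55 ± 0.12 in CD4 cells (limma adjusted p = 0.00403) and 0.38 ± 0.12 in CD8 cells (0.0363), or 1.46-fold and 1.30-fold. The CD8 call was lost with only the CD8 groups fitted (0.0649) and without CD8 control A, CD8 control C, CD8 Foxp3-positive B or CD8 Foxp3-positive C (up to 0.131). Without both CD8 arrays B its adjusted p was 0.141. The effects were not shown to differ between cell types (-0.17 ± 0.16, adjusted p = 0.595, 95% interval -0.52 to 0.19). CD8 control and CD4 Foxp3-positive cells had nearly the same Dnmt3b level, 7.16 ± 0.12 and 7.16 ± 0.09 (SD, n = 3).

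Dnmt3a, the other enzyme for new methylation, followed the cell type more than the Foxp3 sort. Its mean was 7.54 ± 0.09 without and 7.62 ± 0.09 with Foxp3 in CD8 cells, and 8.03 ± 0.03 without and 7.89 ± 0.09 with Foxp3 in CD4 cells (SD, n = 3). All 6 CD4 arrays, at 7.79 to 8.04, were above all 6 CD8 arrays, at 7.43 to 7.67. The Foxp3 differences were 0.08 ± 0.09 in CD8 cells (limma adjusted p = 0.615) and -0.13 ± 0.09 in CD4 cells (0.321).

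Tet3, a dioxygenase that oxidises methylcytosine, measured 8.72, 8.49 and 8.32 in CD8 controls, against 9.26, 9.21 and 9.46 in CD8 cells with Foxp3. The arrays did not overlap, and Tet3 rose by 0.80 ± 0.11 log2 units or 1.74-fold (limma adjusted p = 2.19e-04). CD4 controls measured 9.31, 9.08 and 9.22 and CD4 Foxp3-positive cells 9.29, 9.18 and 9.15, a difference of 0.00 within an interval of -0.25 to 0.25. The effects differed by 0.80 ± 0.16 (limma interaction, adjusted p = 0.00524). CD8 control cells thus stood apart at the low end, 0.70 below the next group, and the other 3 groups lay within 0.10 of each other.

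Tet2 measured 9.72, 9.89 and 9.90 in CD4 controls and 9.29, 9.28 and 9.44 in CD4 Foxp3-positive cells. CD4 controls were above every other array, and Tet2, the family member most often mutated in blood cancers, fell by 0.50 ± 0.12 or 1.41-fold with Foxp3 in CD4 cells (limma adjusted p = 0.00855). CD8 controls measured 9.22, 9.12 and 9.59 and CD8 Foxp3-positive cells 9.26, 9.11 and 9.31, which overlapped. The CD8 difference was -0.08 ± 0.12 (adjusted p = 0.735), and it turned to 0.06 without CD8 control C. The interaction of 0.42 ± 0.17 missed the threshold (limma adjusted p = 0.134) and passed it without that array (0.0197).

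Tet1 was the noisiest member. Its SD reached 0.37 in both the CD8 control and the CD4 Foxp3-positive groups, with single arrays from 5.85 to 7.07, so only large differences were detectable. The Foxp3 differences of -0.40 ± 0.20 in CD8 and -0.52 ± 0.20 in CD4 cells missed the threshold (limma adjusted p = 0.216 and 0.0887). The CD4 arrays did not overlap, at 6.55 to 7.03 in controls and 5.85 to 6.54 with Foxp3.

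Ezh2, the PRC2 methyltransferase of dividing cells, fell in both cell types. CD8 controls measured 10.76, 10.75 and 10.83 and CD8 Foxp3-positive cells 10.01, 9.91 and 9.68, a fall by 0.91 ± 0.10 or 1.88-fold (limma adjusted p = 3.24e-05). CD4 controls measured 10.62, 10.52 and 10.64 and CD4 Foxp3-positive cells 10.28, 10.12 and 10.01, a fall by 0.46 ± 0.10 or 1.37-fold (limma adjusted p = 0.00561). Every Foxp3-positive array was below every control array across both cell types. The difference of the effects, -0.46 ± 0.14, missed the threshold (limma interaction, adjusted p = 0.0561) and passed it under 6 alternatives, among them both other scalings and leaving out CD8 Foxp3-positive A (0.0428) or CD4 Foxp3-positive C (0.0420).

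Ezh1, the PRC2 methyltransferase that also acts in resting cells, did not pass in either cell type. CD8 controls measured 9.57, 9.25 and 9.91 and CD8 Foxp3-positive cells 9.89, 9.81 and 10.02, overlapping through control C. The difference was 0.33 ± 0.14 (limma adjusted p = 0.127), and without CD8 control C it was 0.50 and passed (0.0107). In CD4 cells the difference was -0.17 ± 0.14 (adjusted p = 0.457).

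**Figure D2:**
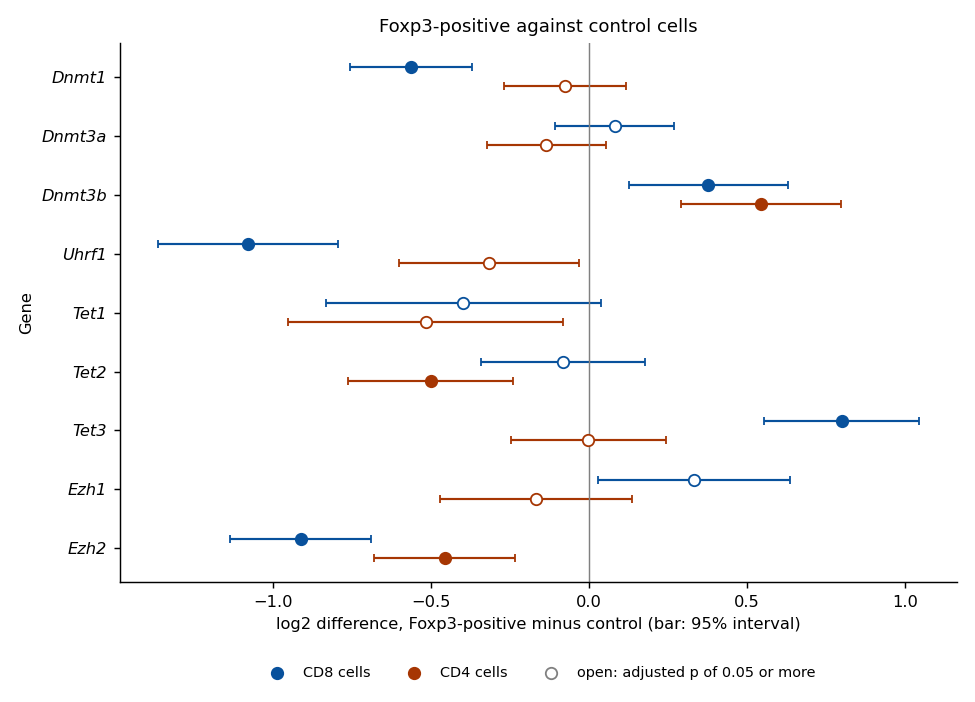
Difference of each member between Foxp3-positive and control cells (log2 units, horizontal axis) in CD8 and CD4 cells, with 95% intervals from limma and open points where the adjusted p was 0.05 or more. Ezh2 lies below 0 and Dnmt3b above 0 in both cell types, while Dnmt1, Uhrf1 and Tet3 lie farther from 0 in CD8 cells.

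Whether the enzymes differed between CD8 and CD4 cells was asked separately for control and Foxp3-positive cells. Between controls 6 of 9 members passed, 3 higher and 3 lower in CD8 cells, where 20.9% of all genes did (12.1% higher, 8.76% lower), and 7 of 9 did not overlap, against 33.7% of all genes. CD8 controls were higher in Dnmt1 by 0.40 ± 0.09 (limma adjusted p = 0.00575), Dnmt3b by 0.55 ± 0.12 (0.00432) and Uhrf1 by 0.53 ± 0.13 (0.0107). They were lower in Dnmt3a by 0.49 ± 0.09 (0.00124), Tet2 by 0.53 ± 0.12 (0.00656) and Tet3 by 0.70 ± 0.11 (6.77e-04). The Uhrf1 call was lost without CD4 control B (0.0527). Ezh1, at -0.38 ± 0.14 (0.0796), passed with an intensity trend in the variance model (0.0376), with genes of low level removed (0.0383) and without CD8 control C (0.00696).

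Between Foxp3-positive cells of the CD8 and CD4 groups 0 of 9 members passed, where 4.71% of all genes did by limma (2.41% higher, 2.30% lower), and 4 did not overlap, against 22.7% of all genes. At an unadjusted p under 0.05 there were 3, Dnmt3a at -0.28 ± 0.09, Dnmt3b at 0.38 ± 0.12 and Ezh2 at -0.27 ± 0.10, with adjusted p of 0.108, 0.0952 and 0.193. Of these 3 genes none overlapped between the groups. Dnmt3a and Dnmt3b passed when genes of low level were removed before the adjustment (0.0393 and 0.0413). For the other 6 members the differences lay between -0.23 for Uhrf1 and 0.12 for Ezh1. The intervals were -0.28 to 0.11 for Dnmt1, -0.37 to 0.15 for Tet2 and -0.14 to 0.35 for Tet3. Those of Uhrf1 (-0.51 to 0.06), Tet1 (-0.42 to 0.45) and Ezh1 (-0.18 to 0.43) were wider. Together these 6 intervals bound what the arrays could have missed.

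**Figure D3:**
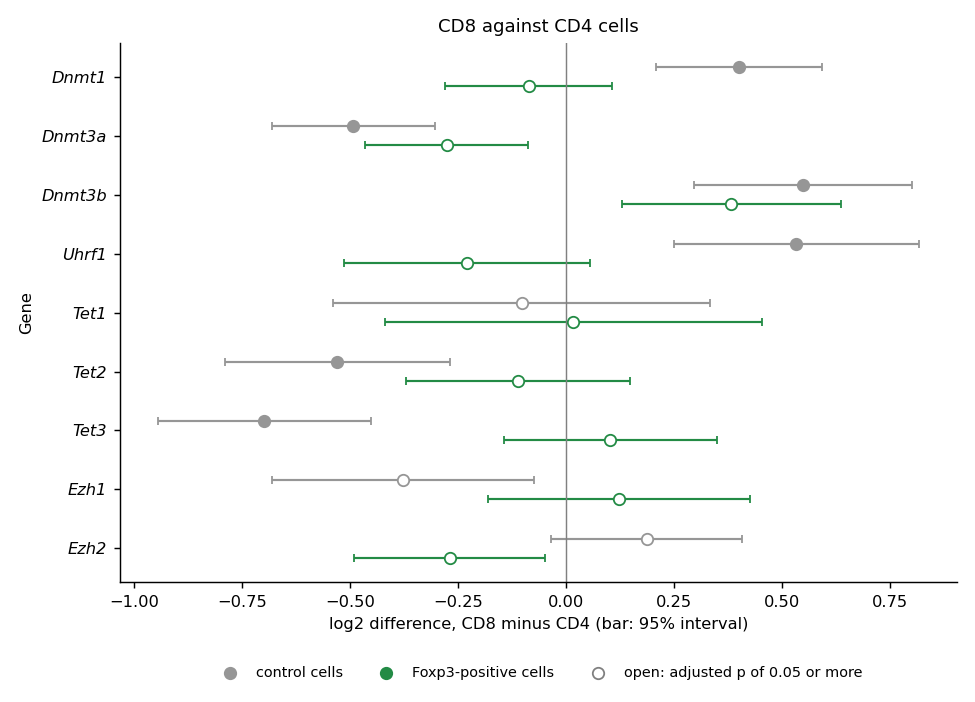
Difference of each member between CD8 and CD4 cells (log2 units, horizontal axis) among control and among Foxp3-positive cells, with 95% intervals from limma and open points where the adjusted p was 0.05 or more. The 6 differences called among controls have no called counterpart among Foxp3-positive cells. Dnmt3a and Dnmt3b keep their direction there with intervals that exclude 0, while those of Dnmt1, Uhrf1, Tet2 and Tet3 include 0.

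Dnmt1, Uhrf1 and Ezh2 are known to be made mostly in dividing cells, so their changes were set beside those of 35 DNA replication and G1/S genes. In CD8 cells 32 of the 35 fell, Lig1, a DNA ligase, rose by 0.47 ± 0.09 (limma adjusted p = 0.00247), and the median was -0.61. In CD4 cells Orc1 fell by 0.59 ± 0.17 (0.0219), Rfc3 by 0.36 ± 0.11 (0.0336) and E2f1 by 0.36 ± 0.12 (0.0399), Gins1 rose by 0.42 ± 0.10 (0.00715) and Lig1 by 0.50 ± 0.09 (0.00136), and the median was -0.06. The 3 falls in CD4 cells were all lost without CD4 control A, CD4 control C, CD4 Foxp3-positive B or CD4 Foxp3-positive C. Over all genes 10.6% fell and 9.39% rose in CD8 cells, and 10.4% fell and 12.1% rose in CD4 cells. Of 19 mitosis genes 18 fell in CD8 cells (median -0.50) and 7 rose in CD4 cells (median 0.25). The 7 became 4 without CD4 control B, CD4 control C, CD4 Foxp3-positive A or CD4 Foxp3-positive B. The spindle motor gene Kif11 fell by 0.63 ± 0.08 in CD8 cells (1.27e-04) and rose by 0.25 ± 0.08 in CD4 cells (0.0454), a CD4 call lost without any 1 of the 6 CD4 arrays. The mean level of the replication list was 9.65 ± 0.13 for CD8 control, 9.05 ± 0.12 for CD8 Foxp3-positive, 9.15 ± 0.13 for CD4 control and 9.12 ± 0.07 for CD4 Foxp3-positive cells (SD, n = 3).

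In CD8 cells the fall of Dnmt1 was close to the median of this list, and the falls of Uhrf1 and Ezh2 were larger. There 23 of the 35 replication genes had a more negative difference than Dnmt1, 1 had a more negative difference than Ezh2, and none than Uhrf1. In CD4 cells, where of these members Ezh2 alone passed, these counts were 14, 1 and 3. The replication mean was also subtracted from each member on each array, a step chosen after the data were seen. The distance of Dnmt1 to the list then changed by 0.03 with Foxp3 in CD8 cells and -0.04 in CD4 cells (exact permutation test, p = 0.7 and 0.3). That of Uhrf1 changed by -0.49 and -0.28 and that of Ezh2 by -0.32 and -0.42, with no overlap between arrays in either cell type. With 3 arrays against 3 the exact test gave p = 0.1 for each of these 4 changes, the smallest it can give. Unequal change of a gene and a list does not say which of them moved, and the share of cycling cells in each group was not measured.

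**Figure D4:**
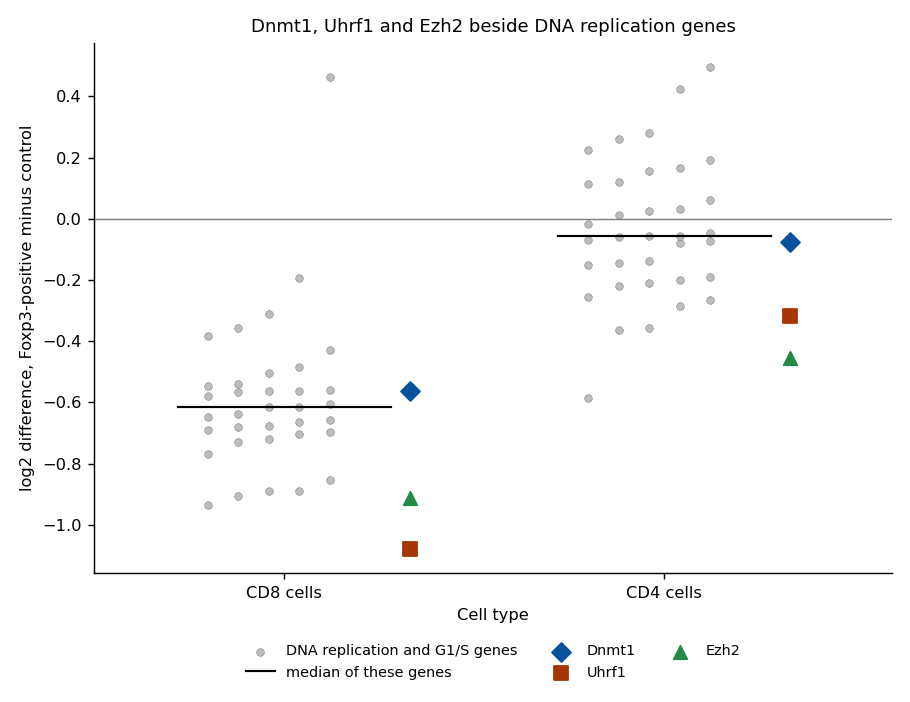
Difference between Foxp3-positive and control cells (log2 units, vertical axis) of 35 DNA replication and G1/S genes (grey points, spread sideways only to separate them, line at the median) and of Dnmt1, Uhrf1 and Ezh2, in CD8 and CD4 cells. Dnmt1 lies near the medians of -0.61 and -0.06, and Uhrf1 and Ezh2 lie below most of the grey points.

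The genes whose levels ran most like those of the members across the 12 arrays were found by Pearson's r among 10248 named genes whose mean was at least the median gene level. The 12 arrays fall into 4 groups, so r reflects group means and is given as a description. Dnmt1 was closest to Topbp1, a checkpoint protein of replication (r = 0.994), then Bard1 (0.985) and the helicase Hells (0.983). Uhrf1 was closest to Rangap1 (0.989), Get1 (0.979) and the clamp loader subunit Rfc3 (0.977). Ezh2 was closest to Sc5d (0.980), Taf1 (0.980) and Insig1 (0.978), of which Sc5d makes cholesterol and Insig1 restrains its synthesis. Tet2 was closest to Rsrp1 (0.972) and Jak2 (0.955), Tet3 to Zswim8 (0.975), Dnmt3a to Tfe3 (0.973), Dnmt3b to Ndufa8 (0.963), Ezh1 to Gimap1 (0.950) and Tet1 to the glycolytic enzyme gene Pfkm (0.926).

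The other subunits of PRC2 mostly fell with Ezh2 in CD8 cells. Of 9 measured 7 fell and 1 rose, with a median of -0.46, where 10.6% of all genes fell and 9.39% rose. Eed, the scaffold that reads the mark, measured 9.20, 9.26 and 9.18 in CD8 controls and 8.51, 8.60 and 8.40 with Foxp3. It fell by 0.71 ± 0.09 in CD8 (limma adjusted p = 1.12e-04) and 0.29 ± 0.09 in CD4 cells (0.0397), and the CD4 call was lost without CD4 control A or C or any 1 CD4 Foxp3-positive array. Suz12, the other core subunit, fell by 0.46 ± 0.09 in CD8 cells (0.00192), and the histone binder Rbbp7 fell by 0.63 ± 0.12 (0.00177). Phf1, an accessory subunit, was the one that rose, by 0.50 ± 0.10 (0.00315).

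Accessory subunits of PRC2 differed between the cell types. Phf19, which guides PRC2 to chromatin, fell by 0.82 ± 0.09 in CD8 cells (limma adjusted p = 4.18e-05) and differed by -0.07 ± 0.09 in CD4 cells (0.650). Jarid2, a substrate-binding subunit, measured 9.68, 9.65 and 9.90 in CD4 controls and 8.58, 8.42 and 8.82 with Foxp3. CD4 controls were far above all other groups, and Jarid2 fell by 1.14 ± 0.13 in CD4 cells (2.81e-05) against a difference of 0.15 ± 0.13 in CD8 cells (0.529). In CD4 cells 3 of the 9 subunits fell, Jarid2, Eed and Aebp2, the last by 0.44 ± 0.09 (0.00403), and the list's median was -0.07.

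Complex 1 of the Polycomb group (PRC1), of which some forms bind the mark left by PRC2, was called in CD8 cells at a share near that of all genes. Of 18 subunits measured 2 rose there, Phc3 by 0.69 ± 0.08 (limma adjusted p = 4.05e-05) and the ubiquitin ligase Rnf2 by 0.41 ± 0.09 (0.00723), and Cbx2 fell by 0.50 ± 0.09 (0.00191) and Pcgf6 by 0.33 ± 0.11 (0.0476). Over all genes 9.39% rose and 10.6% fell in CD8 cells. The Pcgf6 fall was lost under 10 of 16 alternatives, including those without CD8 control A or B or any 1 CD8 Foxp3-positive array. In CD4 cells 6 rose and none fell, among them Cbx7, a reader of the Polycomb mark, by 0.84 ± 0.11 (8.18e-05), Phc1 by 0.64 ± 0.09 (1.93e-04), Phc3 by 0.58 ± 0.08 (1.51e-04) and Rnf2 by 0.59 ± 0.09 (4.66e-04). The other 2 were Pcgf6, by 0.63 ± 0.11 (7.68e-04), and Yaf2, by 0.39 ± 0.09 (0.00665). Over all genes 12.1% rose and 10.4% fell in CD4 cells.

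Kdm6b, a demethylase that removes the Polycomb mark, rose in both cell types. In CD8 cells it measured 8.54, 8.25 and 8.50 without and 9.38, 9.38 and 9.56 with Foxp3. In CD4 cells it measured 8.72, 8.76 and 8.86 without and 9.58, 9.54 and 9.80 with Foxp3. Every Foxp3-positive array was above every control array, and the rises were 1.01 ± 0.11 (limma adjusted p = 1.87e-05) and 0.86 ± 0.11 (5.41e-05). Of the other 2 measured H3K27 demethylases, Kdm6a differed by 0.26 ± 0.20 and 0.25 ± 0.20 and did not pass, and Y-linked Uty had an SD of about 2 in every group. Of 11 other histone methyltransferases Kmt2c, which acts on enhancers, rose by 0.92 ± 0.09 in CD8 (9.10e-06) and 0.33 ± 0.09 in CD4 cells (0.0176), and Setd1b rose in CD8 cells by 0.32 ± 0.09 (0.0190). In CD4 cells Kmt2a and Kmt2d fell by 0.34 ± 0.10 (0.0302) and 0.33 ± 0.09 (0.0209). Over all genes 20.0% were called in CD8 and 22.5% in CD4 cells. The Setd1b rise was lost without CD8 control B, CD8 control C or CD8 Foxp3-positive C. In CD4 cells all 3 calls were lost without CD4 Foxp3-positive A or B, both falls also without CD4 control A or C, and the Kmt2d fall also without CD4 control B.

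Among 12 readers and partners of methylated DNA, Hells, the remodeller that helps methylation spread through chromatin, fell the most in CD8 cells. It measured 9.72, 9.84 and 9.61 in CD8 controls and 8.52, 8.61 and 8.25 with Foxp3, a fall by 1.27 ± 0.11 (limma adjusted p = 2.68e-06), and differed by -0.22 ± 0.11 in CD4 cells (0.171). Mbd4, a glycosylase that binds methylated CpG, fell by 0.75 ± 0.11 in CD8 cells (2.89e-04). Zbtb38, a repressor that binds methylated CpG, fell in both, by 0.53 ± 0.12 in CD8 (0.00515) and 1.58 ± 0.12 in CD4 cells (5.12e-07). Uhrf2, the relative of Uhrf1, rose by 0.57 ± 0.10 (8.85e-04) and 0.67 ± 0.10 (2.35e-04), opposite in direction to Uhrf1 in CD8 cells. Zbtb4, another zinc finger reader, rose in CD8 cells by 0.86 ± 0.13 (4.44e-04), and Zbtb33, encoding Kaiso, rose in CD4 cells by 0.39 ± 0.08 (0.00412). Counts for the list were 2 higher and 3 lower in CD8 cells and 2 higher and 1 lower in CD4 cells, where 20.0% and 22.5% of all genes were called in either direction.

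The list for removal of oxidised methylcytosine, a step after Tet, had 11 measured genes. Tdg, Apex1 and Gadd45a, also listed, were not measured. The 11 showed 1 call in CD8 cells and 4 in CD4 cells, 2 higher and 2 lower. Over all genes 20.0% were called in CD8 and 22.5% in CD4 cells. Parp1, a sensor of DNA breaks, fell in CD8 cells by 0.73 ± 0.09 (limma adjusted p = 6.76e-05), and without CD8 control C or CD8 Foxp3-positive C 2 genes of the list fell there. In CD4 cells Gadd45g, a stress gene linked to demethylation, measured 10.35, 10.37 and 9.96 in controls and 7.61, 7.40 and 7.92 with Foxp3. It fell by 2.58 ± 0.29 (2.57e-05), and its relative Gadd45b fell by 0.63 ± 0.12 (0.00184). Neil3, a glycosylase of dividing cells, rose in CD4 cells by 0.79 ± 0.10 (5.92e-05), and Xrcc1, a repair scaffold, rose by 0.27 ± 0.09 (0.0471). The Xrcc1 rise was lost without any 1 of the CD4 control arrays or without CD4 Foxp3-positive A or B. The 2 higher genes in CD4 cells became 4 without CD4 Foxp3-positive C.

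Methyltransferases need S-adenosylmethionine, and Tet enzymes need 2-oxoglutarate, so genes of the metabolism of both were counted. Over all genes 9.39% rose and 10.6% fell in CD8 cells, and 12.1% rose and 10.4% fell in CD4 cells. Of 14 methionine and one-carbon genes 8 fell and none rose in CD8 cells (median -0.50), and 3 fell and 1 rose in CD4 cells (median -0.07). Slc7a5, the large neutral amino acid transporter that brings in methionine, fell by 1.89 ± 0.21 in CD8 (limma adjusted p = 2.46e-05) and 1.16 ± 0.21 in CD4 cells (0.00104). Its partner Slc3a2 fell by 0.71 ± 0.10 (2.40e-04) and 0.54 ± 0.10 (0.00179), and the mitochondrial folate enzyme Mthfd2 by 0.78 ± 0.09 (3.08e-05) and 0.62 ± 0.09 (1.63e-04). Shmt2, which feeds the folate pool from serine, fell in CD8 cells by 0.95 ± 0.14 (2.25e-04) and differed by -0.12 ± 0.14 in CD4 cells (0.594). Methionine synthase, Mtr, rose in CD4 cells by 0.48 ± 0.10 (0.00310).

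Of 13 genes of 2-oxoglutarate metabolism 9 fell in CD8 cells and none rose (median -0.34), and the 9 became 5 without CD8 control B. The list also holds genes of steps that use 2-oxoglutarate or follow it, so its counts are not counts of supply. In CD4 cells 3 fell and 4 rose (median 0.03), and the 3 became 1 without CD4 control C or CD4 Foxp3-positive B, and the 4 became 2 without CD4 control B or CD4 Foxp3-positive B. Idh1 and Idh2, the isocitrate dehydrogenases that make 2-oxoglutarate with NADP, fell by 0.97 ± 0.14 (limma adjusted p = 2.42e-04) and 1.01 ± 0.19 (0.00175) in CD8 cells. They fell by 0.67 ± 0.14 (0.00340) and 0.58 ± 0.19 (0.0428) in CD4 cells, where the Idh2 call was lost without CD4 control A or C or any 1 CD4 Foxp3-positive array. Got1, a transaminase, fell by 0.46 ± 0.09 (0.00258) in CD8 and 0.34 ± 0.09 (0.0158) in CD4 cells, the latter lost without CD4 control C or CD4 Foxp3-positive B. The NAD-dependent subunit gene Idh3a fell by 0.40 ± 0.10 in CD8 cells (0.0111) and rose by 0.36 ± 0.10 in CD4 cells (0.0195). These calls were lost without CD8 control B, and without CD4 control B, CD4 control C or CD4 Foxp3-positive B. Its partners Idh3b and Idh3g rose in CD4 cells by 0.26 ± 0.08 (0.0274) and 0.29 ± 0.07 (0.0106), and glutamate dehydrogenase, Glud1, rose by 0.44 ± 0.09 (0.00222). The Idh3b rise was lost without CD4 control A or B or CD4 Foxp3-positive A or B. Levels of the metabolites themselves were not measured.

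**Figure D5:**
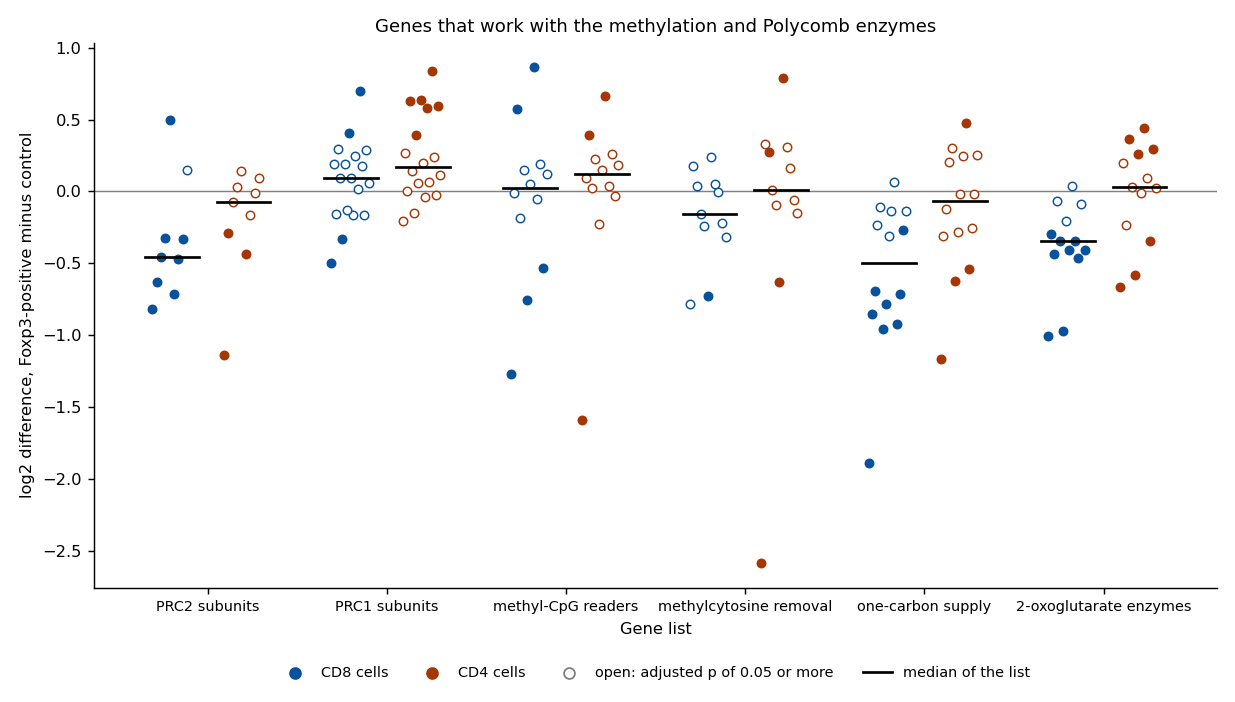
Difference between Foxp3-positive and control cells (log2 units, vertical axis) of every measured gene in 6 lists that work with the members, in CD8 and CD4 cells, with filled points where the limma adjusted p was under 0.05 and a line at the median of each list. PRC2 subunits lie mostly below 0 in CD8 cells (median -0.46) and near 0 in CD4 cells (median -0.07).

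Genes known to be demethylated in regulatory T cells and genes known to be silenced by the Polycomb mark in T cells were read out last. Of 8 genes of the first kind 6 rose in CD8 cells and 5 in CD4 cells, where 1 fell. Over all genes 9.39% rose and 10.6% fell in CD8 cells, and 12.1% rose and 10.4% fell in CD4 cells. Foxp3, which was sorted for, is among them. Itgae, the integrin αE that TGFβ is known to induce, rose by 6.93 ± 0.12 (limma adjusted p = 3.83e-12) and 4.87 ± 0.12 (5.18e-11), and Ikzf4, encoding Eos, rose by 2.72 ± 0.11 (5.37e-09) and 1.14 ± 0.11 (5.68e-06). Ikzf2, encoding Helios, rose by 2.71 ± 0.38 in CD4 cells (1.71e-04) and differed by 0.72 ± 0.38 in CD8 cells (0.244). Lrrc32, encoding the TGFβ carrier GARP, rose by 1.66 ± 0.20 (5.01e-05) and 1.12 ± 0.20 (0.00102). The gene that fell was Tnfrsf18, encoding GITR, by 0.61 ± 0.13 in CD4 cells (0.00421). The 2 genes of this list not named here rose in CD8 cells and had no call in CD4 cells.

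Of 16 genes of the second kind 7 fell and 2 rose in CD8 cells (median -0.46), and 11 fell and 1 rose in CD4 cells (median -1.34). The shares of all genes were 10.6% lower and 9.39% higher in CD8 cells, and 10.4% lower and 12.1% higher in CD4 cells. The list holds 3 cell-cycle inhibitors, Cdkn1a, Cdkn2a and Cdkn2b, which all fell in CD8 cells, by 1.12 ± 0.10 (limma adjusted p = 4.36e-06), 0.71 ± 0.12 (8.75e-04) and 0.61 ± 0.12 (0.00309), and of which Cdkn1a fell in CD4 cells. Of the other 13, effector and helper genes, 4 fell and 2 rose in CD8 cells (median -0.18), and 10 fell and 1 rose in CD4 cells (median -1.75). The cytokine gene Ifng fell by 2.26 ± 0.25 in CD8 (limma adjusted p = 3.10e-05) and 3.66 ± 0.25 in CD4 cells (3.16e-07). Its Foxp3-positive levels, 4.37 ± 0.24 and 4.47 ± 0.31 (SD, n = 3), lay below the median gene level of 5.60, as did those of Il4 and Il13, and without detection calls the sizes of such falls may be understated. Il13 fell by 6.77 ± 0.15 in CD4 cells (2.12e-11) from a control level of 12.01 ± 0.11, and it stood at 5.53 ± 0.22 in CD8 controls, below the median gene level. Il4 fell by 4.43 ± 0.15 in CD4 cells (5.83e-10). In CD8 cells Il4 was near the bottom of the scale and rose from 4.43 ± 0.16 to 5.02 ± 0.19 (adjusted p = 0.0125), a call lost without CD8 control A or CD8 Foxp3-positive B. Bcl6, the factor of follicular helper cells, rose in both, by 1.34 ± 0.14 (2.22e-05) and 1.07 ± 0.14 (1.18e-04). In bulk RNA fewer cells expressing a gene and less RNA in each cell cannot be told apart, here and for every gene above.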

How the data were processed

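Total RNA of sorted cells was hybridised to Affymetrix arrays. The deposited table gives a log2 level for each transcript cluster on each array. Per the submitters' processing notes, RMA in Affymetrix Expression Console was used. It gives the probe signals of the arrays 1 distribution before they are summarised, so a change of all RNA would not show. Array medians of the deposited levels still ran from 5.23 to 5.33. The sources used here do not state tool versions, genome build or detection calls. Of 34365 clusters, 23521 had 1 symbol in the platform annotation, 1814 several and 9030 none. The brightest cluster stood for a gene.

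One model of 4 group means was fitted to 22180 genes with limma 3.58.1 in R 4.3.3 (8 residual degrees of freedom, eBayes), with two-sided p-values adjusted by Benjamini-Hochberg over all genes and a threshold of 0.05. Errors of differences are SE, those of levels SD. The code was tested on simulated data. The labels do not say that arrays came from separate cultures, so p-values measure the spread between arrays, which may be partly technical, and the number of arrays limits the precision. The members and the 12 lists of 187 genes (169 measured) were chosen with earlier results of these data known. Named list genes were the 3 called genes of each list that changed most, and those of a direction in which 5 or fewer moved. Suz12, Rbbp7, Yaf2, Kdm6a, its Y-linked relative Uty, Xist, Cdkn1a, Cdkn2a, Cdkn2b and marker genes were named outside that rule after their values were seen. List genes with the promoter letters were named for the match. Promoter windows came from RefSeq. Figures were drawn with matplotlib 3.10.9. Alternatives changed the variance model, scaling, filter, cluster rule, replicate block and arrays.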

Additional observations from a re-analysis of the deposited data

Results flagged for a closer look

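For the results here the CD8 difference between Foxp3-positive and control cells itself differed from the CD4 difference (limma interaction, adjusted p under 0.05 over all genes), and each value is the CD8 difference minus the CD4 difference in log2 units. Among the 9 members this held for Dnmt1 (-0.49), Uhrf1 (-0.76) and Tet3 (0.80), where 13.5% of all genes did so.

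Among genes of the lists only named ones are given here, and others passed as well. In all, 2 of 9 PRC2 subunits were higher and 3 lower, and 20 of 35 replication and 17 of 19 mitosis genes were lower. Over all genes 6.01% were higher and 7.48% lower. Named PRC2 subunits that differed were Jarid2 (1.28), Phf19 (-0.74), Rbbp7 (-0.72) and Phf1 (0.51). PRC1 subunits were Cbx7 (-0.54), Phc1 (-0.46) and Pcgf6 (-0.96), and methyltransferases were Kmt2c (0.60) and Kmt2d (0.51). Readers of methylated DNA were Zbtb4 (0.72), Zbtb38 (1.06), Hells (-1.04) and Mbd4 (-1.01). Genes of methylcytosine removal were Parp1 (-0.74), Gadd45g (1.80), Gadd45b (0.87) and Neil3 (-1.03).

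Genes of one-carbon supply and 2-oxoglutarate metabolism were Shmt1 (-1.22), Shmt2 (-0.83), Mtr (-0.62), Idh3a (-0.77), Idh3g (-0.38) and Glud1 (-0.40). Replication and mitosis genes were E2f2 (-0.92), Gins1 (-1.14), Bub1 (-1.0), Bub1b (-0.93) and Kif11 (-0.89). Regulatory T cell genes were Ikzf4 (1.58), Itgae (2.05), Ikzf2 (-2.00) and Tnfrsf18 (0.96). Effector cytokine genes were Ifng (1.40), Il4 (5.02) and Il13 (6.59), of which Il13 and Il4 were high in CD4 control cells alone. All 3 lay below the median gene level of 5.60 in both Foxp3-positive groups, so their values mostly restate the control levels and are not sizes of a response. The cell-cycle inhibitor Cdkn2b differed too (-0.58), a call lost under 15 of 21 alternatives, with adjusted p up to 0.182. The calls for Cbx7, Phc1, Phf1, Zbtb4, Idh3g, Glud1, Ifng and Ikzf2 were each lost under at least 4 of 21 alternatives, with adjusted p up to 0.104 (Glud1).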

How the results depend on the processing

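Of 17 member calls in the 5 comparisons 14 held under every other setting tried apart from the exact test and the fits on sex-linked levels. The others were Dnmt3b in CD8 cells, the Dnmt1 interaction and Uhrf1 between controls. With the replicate block 1 member call changed in the 5 comparisons, Dnmt3b in CD8 cells (0.38, adjusted p = 0.0534). Of the calls of named list genes in the CD8, CD4 and interaction comparisons, the block kept 124. It ended 8: Eed, E2f1, Kif11 and Xrcc1 in CD4 cells, Pcgf6 in CD8 cells, and the Phc1, Glud1 and Cdkn2b interactions, with adjusted p of 0.0519 to 0.0734. It added 3: Cbx7 and Tnfrsf18 in CD8 cells and the Cdc6 interaction. Same-letter correlations of deviations from group means ran from -0.10 to 0.14 over 18 pairs. Between the CD8 groups they were 0.054, 0.13 and 0.14, and each array correlated best with its own letter, the letter that sex-linked levels also follow there. This is a hint from the data, since the labels do not say whether CD8 arrays of a letter share cells. Between the CD4 groups the same-letter correlations were 0.012, -0.10 and -0.039. The block gave each letter an effect shared by CD8 and CD4 groups, so pairing within CD8 cells alone was not tested.

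Counts of members called changed as follows. Removing genes of low level gave 2 between Foxp3-positive cells in place of 0. That filter and the intensity trend each gave 4 for the interaction in place of 3, as Ezh2 joined, and 7 between controls in place of 6, as Ezh1 joined. Both other scalings also gave 4 for the interaction through Ezh2. The replicate block and the fit of the compared groups alone each gave 4 in CD8 cells in place of 5. The exact permutation test, which cannot go below p = 0.1 here, gave 0 in each two-group comparison. Leaving out 1 array gave 4 to 5 in CD8 cells, 3 in CD4 cells, 2 to 5 for the interaction, 0 between Foxp3-positive cells and 5 to 7 between controls. The 5 came without CD8 control C, where Tet2 and Ezh1 joined.

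Some small differences without a call changed sign. The Tet3 difference in CD4 cells was 0.041 with arrays centred on their median, and the Dnmt1 difference in CD4 cells was 7.1e-04 after another quantile normalization. Leaving out 1 array gave -0.064 to 0.053 for Tet3 in CD4 cells, -0.18 to 0.057 for Tet2 in CD8 cells, -0.089 to 0.32 for the Tet1 interaction, -0.30 to 0.067 for Tet1 between controls and -0.19 to 0.15 for Tet1 between Foxp3-positive cells.

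Both fits on sex-linked levels were chosen after seeing the data. Without both CD8 arrays B the Tet1 interaction was -0.033 and Tet1 between controls 0.067, and with the Y-linked level as a covariate Tet1 between Foxp3-positive cells was -0.029. Under that covariate every member call was kept.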

Other observations

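Sex-linked transcripts varied between arrays of a group while the labels give no sex. Eif2s3y, on the Y chromosome, measured 3.18, 9.07 and 7.84 on CD8 control arrays A to C and 3.67, 9.23 and 7.59 on CD8 Foxp3-positive arrays A to C. Xist measured 11.18, 5.20 and 11.06 and then 11.34, 4.74 and 10.74 on the same arrays. Array A was thus high in Xist alone, array B in Eif2s3y alone and array C in both, in the same order of letters in both CD8 groups.

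In CD4 cells Eif2s3y measured 3.50, 3.66 and 7.95 in controls and 3.69, 8.19 and 2.96 in Foxp3-positive cells, with Xist between 10.70 and 11.39 on all 6 arrays. The array with both transcripts was C among CD4 controls and B among CD4 Foxp3-positive cells. Kdm5d and Uty, also on the Y chromosome, were high on the same 6 arrays as Eif2s3y.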
